A study of Homo sapiens with 6 samples.

Results

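The transcripts of 9 cell-surface proteins that serve as targets of imaging agents, antibodies or cell therapy in prostate cancer were followed from parental LNCaP cells to an enzalutamide-resistant derivative. The genes are FOLH1, STEAP1, STEAP2, STEAP4, CD276, PSCA, TMEFF2, CD46 and NECTIN4. They were taken by gene symbol from the deposited table of 35554 genes, and all 9 were found. LNCaP is an established human line from a prostate cancer metastasis that responds to androgens. The resistant line, LNCaP-enzaR, was derived from it by long exposure to enzalutamide, which blocks androgen signalling, and the study's methods say that it was kept on the drug. There were 3 libraries of each line (n = 3), each from a flask harvested before confluence. The study's RNA methods describe cells in triplicate wells that were starved of serum and calcium before ligand treatment. Those methods do not say if the libraries compared here were handled in that way. Each line is a single culture history, so that p-values measure the spread between flasks and not between independent selections. The sources do not say if LNCaP-enzaR flasks still received enzalutamide when RNA was taken. Only transcripts were measured, not antigen protein.

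FOLH1 encodes prostate-specific membrane antigen (PSMA), a membrane carboxypeptidase that removes glutamate from folates and from a neuropeptide. It is the target of PSMA imaging and radioligand therapy, and androgens are known to repress it. STEAP1, STEAP2 and STEAP4 are membrane proteins with multiple spanning segments. STEAP2 and STEAP4 reduce iron and copper, whereas STEAP1 lacks the domain that binds the electron donor. CD276 is an immune checkpoint ligand of the B7 family, PSCA a small lipid-anchored protein of the Ly6 family, and TMEFF2 a membrane protein with follistatin-like and EGF-like domains. CD46 protects cells from complement, and NECTIN4 is a cell adhesion molecule and the target of an antibody-drug conjugate used in urothelial cancer.

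Libraries held 77759122 to 98616465 counts. LNCaP-enzaR replicate 1 stood apart from the others of its line. Compared by chi-square over genes, it reached 31.6 per degree of freedom against replicate 3 and 39.6 against replicate 2, while the other 4 pairs of libraries within a line gave 5.80 to 9.66, so that no library was a duplicate of another. Named genes whose call changed without this library are given with and without it. The share of counts from the mitochondrial genome was 6.72% to 7.06% in parental and 14.7% to 15.5% in LNCaP-enzaR libraries. Without the mitochondrial genes the calls of all 9 antigens were the same. Markers of luminal prostate epithelium were expressed in both lines, with 10 of 10 tested and a summed level of 3765 to 3884 CPM in parental and 2884 to 3238 CPM in LNCaP-enzaR libraries. Of these, KLK3, KLK2, HOXB13 and ACP3 were 8.45-fold, 3.99-fold, 1.79-fold and 1.64-fold lower in LNCaP-enzaR, KRT8 was 2.23-fold higher, and the other 5 did not pass the threshold defined with the antigens. CPM is the counts scaled to 1000000 per library after TMM scaling. Markers of leukocytes summed to at most 0.216 CPM in any library. Those of fibroblasts summed to 14.7 to 17.9 CPM in parental and 8.24 to 8.95 CPM in LNCaP-enzaR libraries. In that list COL1A1 went from 13.4 to 4.29 CPM, LUM and PDGFRB rose from 0.425 to 1.44 and from 0.641 to 1.73 CPM, and DCN averaged 0.0037 and 0.107 CPM. Of the endothelial markers, VWF made up nearly all of a sum of 3.94 to 6.10 CPM. Basal markers summed to at most 1.71 CPM, with KRT5 and TP63 at 0 counts in all but 1 library each, and neuroendocrine markers to at most 3.23 CPM, mainly SYP. The part of these markers in the antigen results was not tested. In bulk RNA, fewer cells with a transcript and less of it per cell cannot be told apart.

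Of the 9 antigens, 8 changed by at least 1.5-fold with an adjusted p of 0.05 or less, the threshold used throughout, with 6 lower and 2 higher in LNCaP-enzaR (edgeR quasi-likelihood test, Benjamini-Hochberg adjusted over all genes tested). FOLH1, STEAP1, STEAP4, CD276, PSCA and TMEFF2 fell, STEAP2 and NECTIN4 rose, and CD46 did not pass. Among all 19711 genes tested, 42.7% were past this threshold, 19.5% lower and 23.3% higher. By adjusted p alone the count was also 8 antigens, beside 66.3% of all genes tested. The CPM ranges of the lines did not overlap for the same 8 antigens and for 70.6% of all genes tested. All 9 antigens passed the filter on low counts, but STEAP4 and TMEFF2 did so through the parental libraries only, where they are high. With at least 10 counts in every library STEAP4 and TMEFF2 were not tested. Then 6 antigens were past the threshold, 4 lower and 2 higher. The median log2 fold change of the 9 antigens was −0.63, beside 0.01 for all genes tested. Since the 9 were picked as known targets, these counts describe the antigens and were not tested as a set. Without LNCaP-enzaR replicate 1 the count was 6, because FOLH1 and STEAP1 came under the fold limit while keeping an adjusted p under 0.05.

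**Figure D1:**
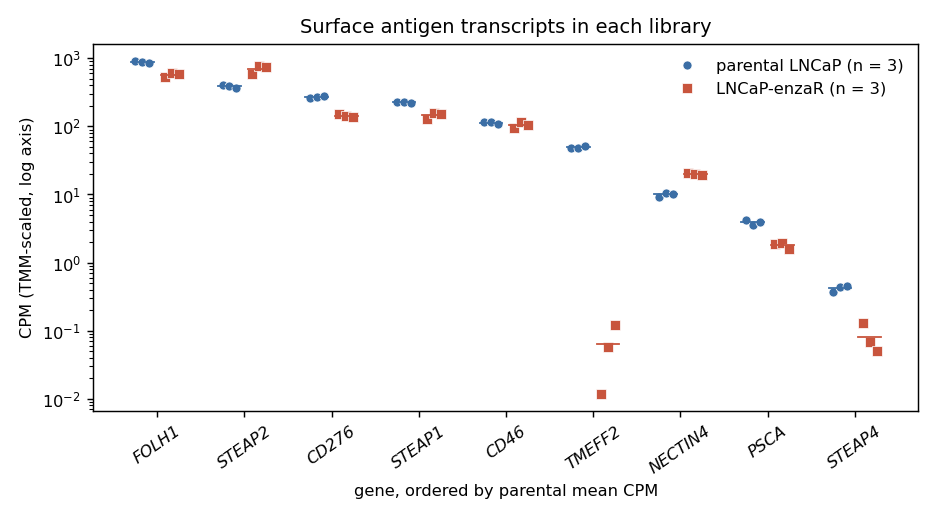
CPM of each antigen in each library, on a log axis, with blue circles for parental LNCaP and red squares for LNCaP-enzaR (3 libraries each) and a line at each mean. The circles and squares separate for 8 genes and overlap for CD46, and TMEFF2 drops from about 49.7 CPM to 0.063 CPM.

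The regions just before the start sites of STEAP1, STEAP2 and TMEFF2 are shown because STEAP1 and STEAP2 are adjacent and moved in opposite directions, and because TMEFF2 changed most among the antigens. Sequences are RefSeq promoter windows on GRCh38.p14, 250 bases before to 50 after the start, read 5′ to 3′ on the gene's strand. They cover chr7:90154219-90154518 on the plus strand for STEAP1, chr7:90211490-90211789 on the plus strand for STEAP2 and chr2:192194884-192195183 on the minus strand for TMEFF2. Both strands were searched for the GC box GGGCGG, the E box CACGTG, the forkhead motif TGTTTAC, the single androgen response arm TGTTCT, and the full androgen response element, which is AGAACA and TGTTCT with 3 bases between them and so contains the single arm. Capitals mark every match.
STEAP1: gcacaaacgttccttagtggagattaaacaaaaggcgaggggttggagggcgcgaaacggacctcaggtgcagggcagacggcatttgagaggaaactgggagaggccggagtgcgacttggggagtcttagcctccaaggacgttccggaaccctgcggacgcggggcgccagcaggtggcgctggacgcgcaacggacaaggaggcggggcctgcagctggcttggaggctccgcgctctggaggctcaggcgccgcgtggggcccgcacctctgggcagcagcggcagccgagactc
STEAP2: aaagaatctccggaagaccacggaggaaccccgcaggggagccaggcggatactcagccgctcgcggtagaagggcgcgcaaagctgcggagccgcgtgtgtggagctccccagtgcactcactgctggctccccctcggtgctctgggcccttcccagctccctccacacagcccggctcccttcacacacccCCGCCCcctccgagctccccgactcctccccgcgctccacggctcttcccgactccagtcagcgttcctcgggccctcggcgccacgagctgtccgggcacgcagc
TMEFF2: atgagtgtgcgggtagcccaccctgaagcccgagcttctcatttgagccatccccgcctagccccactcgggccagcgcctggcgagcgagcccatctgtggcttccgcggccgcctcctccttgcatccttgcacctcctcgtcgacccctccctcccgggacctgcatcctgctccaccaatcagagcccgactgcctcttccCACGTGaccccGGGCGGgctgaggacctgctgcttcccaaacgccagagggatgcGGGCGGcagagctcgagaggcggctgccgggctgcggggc
The STEAP1 window held no match to any of these motifs, that of STEAP2 held 1 GC box, and that of TMEFF2 held 2 GC boxes and 1 E box. A GC box occurred in 44.9% of 35093 RefSeq promoter windows, an E box in 7.26%, the single arm in 14.8%, the forkhead motif in 3.42% and the full element in 0.00285%. CpG dinucleotides numbered 27 in the STEAP1, 28 in the STEAP2 and 24 in the TMEFF2 window, against a median of 14 over all windows. The RefSeq start site of STEAP1 was 13 bases from the start in the deposited table and that of TMEFF2 was at the same base, but that of STEAP2 lay 44150 bases inside the deposited gene, which begins further upstream. RefSeq gives STEAP2 a further start whose window held 1 forkhead match and 2 CpG dinucleotides. The single arm was matched once in the windows of CD46 and NECTIN4. A match is a string of letters and says nothing about binding in these cells.

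FOLH1 (ENSG00000086205.18, chromosome 11, 49145092 to 49208638, GRCh38) was the most abundant antigen of parental cells per length. Its CPM was 924, 893 and 864 in the parental libraries and 532, 608 and 587 in the LNCaP-enzaR libraries. Every resistant library lay under every parental library, and replicate 1 was the lowest of its line. The mean went from 894 ± 29.6 to 576 ± 39.5 CPM (SD, n = 3 each), which edgeR estimated as −0.63 on a log2 scale (SE 0.059, adjusted p = 2.69e-07). With an interval of 0.590 to 0.703 for the fold (95%, from the edgeR fit), the 1.5-fold limit lay inside it. The log2 fold change was −0.57 without LNCaP-enzaR replicate 1 and −0.53 with upper-quartile scaling, both short of that limit. Among 14062 protein-coding genes ranked per length, FOLH1 went from position 170 to position 246. FOLH1B, a near-identical pseudogene on chromosome 11 that could share reads with it, held 0.272% to 0.343% of the FOLH1 counts in parental and 0.0763% to 0.120% in LNCaP-enzaR libraries.

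STEAP1 (ENSG00000164647.9, chromosome 7, 90154456 to 90164829) moved by nearly the same factor as FOLH1. Its CPM was 228, 232 and 217 in parental libraries and 130, 158 and 151 in LNCaP-enzaR libraries, again with replicate 1 as the lowest and no overlap between lines. The mean went from 226 ± 7.58 to 146 ± 14.8 CPM (SD, n = 3 each), which edgeR estimated as −0.62 on a log2 scale (SE 0.069, adjusted p = 1.88e-06). Without LNCaP-enzaR replicate 1 it was −0.54, and with upper-quartile scaling −0.52, both under the fold limit.

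STEAP2 (ENSG00000157214.14, chromosome 7, 90167590 to 90238137), whose gene begins 2761 bases beyond the end of STEAP1 on the same strand, rose. It held 407, 388 and 367 CPM in parental libraries and 585, 766 and 738 CPM in LNCaP-enzaR libraries. All resistant libraries exceeded all parental ones, but their spread was wider, at 696 ± 97.5 CPM against 387 ± 20.2 CPM (SD, n = 3 each). On the log2 scale the change was 0.85 (SE 0.085, adjusted p = 6.11e-07 by edgeR), and 0.96 without LNCaP-enzaR replicate 1. STEAP2 took 19.3% to 20.3% of the summed CPM of the 9 antigens in parental libraries and 38.6% to 42.4% in LNCaP-enzaR libraries, while FOLH1 went from 45.4% to 46.1% down to 33.6% to 35.1%. The sum itself was 1956 ± 49.5 CPM in parental and 1689 ± 154 CPM in LNCaP-enzaR cells (SD, n = 3 each). Neither the sum nor the shares are per length, and STEAP2 has 8720 exonic bases against 5335 for FOLH1. Per length, STEAP2 stood at position 3 among the antigens in LNCaP-enzaR cells, after FOLH1 and STEAP1.

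STEAP4 (ENSG00000127954.13, chromosome 7, 88270892 to 88306894), known as an androgen-induced gene, had few reads in either line. Counts were 34, 40 and 36 in parental libraries and 11, 6 and 5 in LNCaP-enzaR libraries. The groups did not overlap, and the mean went from 0.422 ± 0.048 to 0.082 ± 0.040 CPM (SD, n = 3 each), which edgeR estimated as −2.36 on a log2 scale (SE 0.47, adjusted p = 0.000511). Summed counts of 110 and 22 gave a 5.22-fold difference with an exact 95% interval of 3.28 to 8.68, which covers counting error only. Of its exonic bases 6.95% lie in exons of another gene, and the strand setting of the counting is not stated.

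TMEFF2 (ENSG00000144339.12, chromosome 2, 191949043 to 192194933) fell to almost no reads. Counts were 4527, 4388 and 4078 in parental libraries and 1, 5 and 12 in LNCaP-enzaR libraries. Replicate 3 held most of what was left, so that the size of the fall depends on the library left out. On the log2 scale the change was −9.53 (SE 0.19, adjusted p = 3.04e-14 by edgeR), and it ranged from −10.43 without LNCaP-enzaR replicate 3 to −9.07 without replicate 1. The 95% interval of the edgeR fit, −9.93 to −9.13, leaves out both of these values. The SE is thus too small for a gene with so few counts in LNCaP-enzaR. Over summed counts of 12993 and 18 the ratio was 754-fold, with an exact 95% interval of 477 to 1273 for counting error only. A fall of at least 4-fold past the threshold was found for 4.46% of all genes tested, and STEAP4 and TMEFF2 were the antigens among them.

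CD276 (ENSG00000103855.18, chromosome 15, 73683966 to 73714514) held 265, 268 and 282 CPM in parental libraries and 152, 140 and 138 CPM in LNCaP-enzaR libraries. The lines lay well apart relative to the spread within each, at 272 ± 9.04 and 143 ± 7.55 CPM (SD, n = 3 each). The log2 difference was −0.92 (SE 0.057, adjusted p = 2.97e-09 by edgeR), with a range of −0.96 to −0.82 over the alternatives.

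PSCA, on chromosome 8, was expressed at a low level. Counts were 396, 327 and 308 in parental libraries and 161, 169 and 156 in LNCaP-enzaR libraries, with no overlap. The mean went from 3.93 ± 0.342 to 1.78 ± 0.185 CPM (SD, n = 3 each), which edgeR estimated as −1.14 on a log2 scale (SE 0.14, adjusted p = 5.84e-06). Exons of another gene cover 20.8% of its exonic bases, which leaves its value uncertain.

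NECTIN4 (ENSG00000143217.9, chromosome 1, 161070998 to 161089558) doubled. Its CPM was 9.32, 10.5 and 10.3 in parental libraries and 20.5, 20.3 and 19.3 in LNCaP-enzaR libraries, tight within each line and without overlap. On the log2 scale the change was 1.00 (SE 0.078, adjusted p = 3.95e-08 by edgeR), with a range of 0.95 to 1.10 over the alternatives.

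CD46 (ENSG00000117335.20, chromosome 1, 207752054 to 207795513) held 118, 114 and 109 CPM in parental libraries and 95.2, 116 and 105 CPM in LNCaP-enzaR libraries. The lines overlapped, and replicate 1 was again the lowest resistant library. The log2 difference of −0.11 (SE 0.070, adjusted p = 0.188 by edgeR) did not pass, and the 95% interval of the fold, 0.836 to 1.03, left out changes of 1.5-fold in either direction. Over the alternatives the adjusted p was 0.0311 to 0.930, and it was lowest when LNCaP-enzaR replicate 2 was omitted (log2 difference −0.18).

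**Figure D2:**
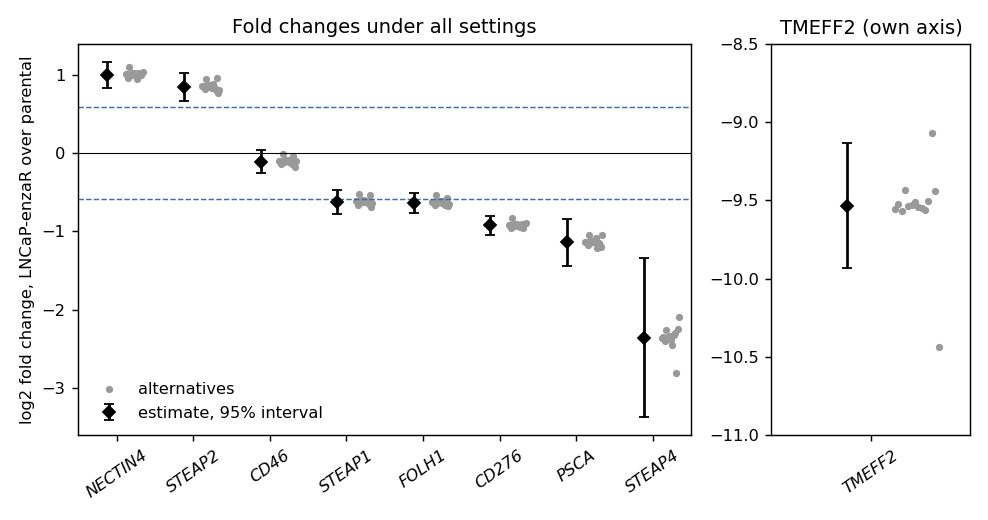
Log2 fold change of LNCaP-enzaR over parental for each antigen (y axis), with the 95% interval of the edgeR estimate in black and the values under the alternative settings in grey, and TMEFF2 on an axis of its own. The TMEFF2 interval leaves out some of its grey values and is too narrow. Dashed lines mark a 1.5-fold change. STEAP1 and FOLH1 sit on the lower line, CD46 lies between both lines, and the other antigens lie outside them under each setting shown.

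Ratios between antigens within a library do not depend on how libraries are scaled. The pairs given were chosen after the values were seen. STEAP2 counts per STEAP1 count were 1.79, 1.67 and 1.69 in parental libraries and 4.501, 4.83 and 4.89 in LNCaP-enzaR libraries, a 2.76-fold higher mean. FOLH1 counts per STEAP1 count were 3.96 ± 0.103 in parental and 3.94 ± 0.135 in LNCaP-enzaR cells (SD, n = 3 each), and these means differed by less than either SD. As this pair was picked for its matching changes, this is a description. FOLH1 counts per CD46 count went from 7.87 ± 0.075 to 5.47 ± 0.193, and NECTIN4 counts per CD276 count from 0.037 ± 0.0020 to 0.140 ± 0.0052 (SD, n = 3 each). The STEAP2 to STEAP1, FOLH1 to CD46 and NECTIN4 to CD276 ratios did not overlap between lines, and each reached a p of 0.10 in the two-sided exact permutation test on log2 ratios, the smallest that 3 libraries against 3 allow. As these pairs too were picked from the values, this p adds no support to the changes of their genes.

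**Figure D3:**
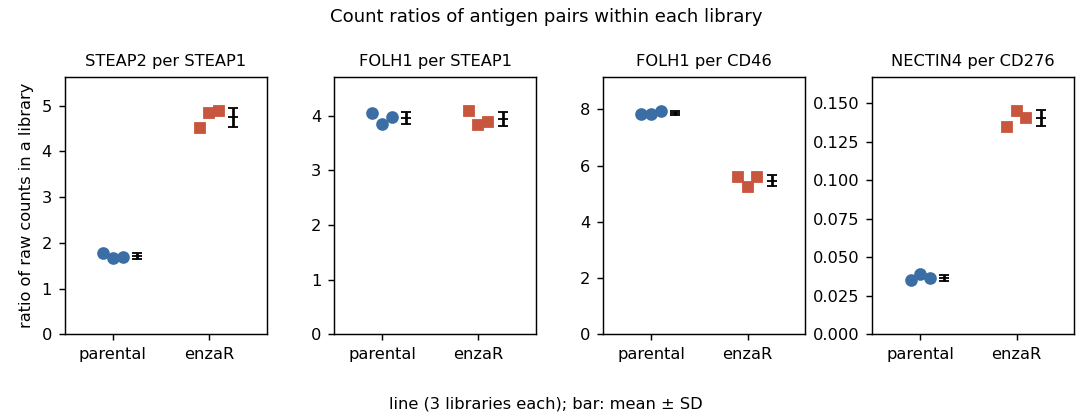
Ratio of the raw counts of 2 antigens in each library (y axis, from 0), with blue circles for parental LNCaP, red squares for LNCaP-enzaR and the mean ± SD beside them. The STEAP2 to STEAP1 ratio rose from about 1.72 to 4.74, whereas the FOLH1 to STEAP1 ratio lay near 3.96 and 3.94.

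Levels of different genes were compared per length, as TPM over all exonic bases of a gene. TPM was not TMM-scaled, so that it is used for the order within a line and not for changes between lines. In parental cells the order was FOLH1 (591 ± 25.5 TPM), STEAP1 (516 ± 18.6 TPM), CD276 (175 ± 5.10 TPM), STEAP2 (157 ± 9.69 TPM), TMEFF2 (29.9 ± 1.16 TPM), CD46 (25.8 ± 1.31 TPM), NECTIN4 (10.2 ± 0.506 TPM), PSCA (7.87 ± 0.775 TPM) and STEAP4 (0.132 ± 0.014 TPM; SD, n = 3). No neighbours in this order overlapped between libraries. In LNCaP-enzaR cells FOLH1 (307 ± 27.9 TPM), STEAP1 (270 ± 33.0 TPM) and STEAP2 (227 ± 36.8 TPM) came first. The ranges of FOLH1 and STEAP1 overlapped, as did those of STEAP1 and STEAP2, although the order was the same within each of the 3 libraries. They were followed, without overlap, by CD276 (74.1 ± 1.95 TPM), CD46 (19.3 ± 2.20 TPM), NECTIN4 (16.5 ± 0.219 TPM) and PSCA (2.87 ± 0.244 TPM), and then by TMEFF2 and STEAP4, both under 0.1 TPM and overlapping. With the canonical transcript as the length, added after the data were seen, CD46 (70.8 TPM) came before TMEFF2 (36.7 TPM) and PSCA (8.29 TPM) before NECTIN4 (5.99 TPM) in parental cells. The order in LNCaP-enzaR cells was the same with both lengths.

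The STEAP family takes part in metal uptake, and a list of related genes held 14 tested genes, of which 6 fell and 2 rose past the threshold (median log2 fold change −0.51). SLC40A1, among the 6, passed the count filter through the parental libraries only. With at least 10 counts in every library, 5 fell and 2 rose past the threshold. Of all genes tested, 19.5% fell and 23.3% rose past it. STEAP3, the family member that reduces iron in endosomes, fell from 33.6 ± 0.737 to 12.9 ± 1.04 CPM. TFRC, the transferrin receptor, fell from 502 ± 12.2 to 238 ± 16.9 CPM and SLC11A2, an iron transporter, from 79.5 ± 1.67 to 34.9 ± 1.66 CPM (SD, n = 3 each). FTH1, the ferritin heavy chain, did not pass, at a log2 fold change of −0.10 (0.0037 with upper-quartile scaling, and −0.20 with an edgeR-adjusted p of 4.55e-05 but still under the fold limit without LNCaP-enzaR replicate 1), and 63.2% of its exonic bases overlap another gene. STEAP1B, a relative of STEAP1 chosen after its values were seen, held 10 to 19 counts in every library.

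Among relatives of FOLH1 and genes of folate metabolism, 10 of 17 tested genes fell and 2 rose past the threshold (median −0.65), beside 19.5% lower and 23.3% higher of all genes tested. TYMS, which makes thymidylate, fell from 85.6 ± 2.06 to 19.8 ± 0.404 CPM. MTHFD1L, a mitochondrial folate enzyme, fell from 43.8 ± 0.595 to 15.7 ± 0.289 CPM (SD, n = 3 each). SHMT2 (−0.57) was just short of the fold limit, and it passed without LNCaP-enzaR replicate 1 (−0.61), without parental replicate 1 (−0.60) and without TMM scaling (−0.61). Of the FOLH1 relatives, chosen after their values were seen, FOLH1B (log2 fold change −2.38), NAALAD2 (−3.66) and NAALADL2 (−0.84) each fell further than FOLH1 itself. Exons of other genes cover 47.9% of the exonic bases of TYMS and 75.6% of those of FOLH1B.

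Of the B7 family and butyrophilins, 9 were tested, 2 rose and 2 fell past the threshold (median 0.32). The shares of all genes tested, for this list and the complement regulators, were 23.3% higher and 19.5% lower. The B7 count lies near the 42.7% past the threshold in either direction. CD274, which encodes the ligand PD-L1, rose from 1.03 ± 0.098 to 47.97 ± 2.65 CPM, which edgeR estimated as 5.53 on a log2 scale (SE 0.098, adjusted p = 1.11e-14), whereas its relative CD276 fell. BTN3A3 fell (−1.03), and BTN2A1 had a log2 fold change of 0.28 and did not pass. Of the complement regulators other than CD46, 4 were tested and 3 rose past the threshold, with a median of 2.13. CR2, among the 3, had 0, 2 and 3 counts in parental and 56, 47 and 31 in LNCaP-enzaR libraries. It passed the count filter through the LNCaP-enzaR libraries only, and its log2 fold change of 4.59 enters the median. With at least 10 counts in every library, 2 rose. CD55 (0.27) did not pass. CD59, which blocks the terminal complement complex, rose from 38.1 ± 0.846 to 84.5 ± 3.70 CPM, and SUSD4 from 3.41 ± 0.177 to 29.3 ± 0.725 CPM (SD, n = 3 each).

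Among the other nectins and nectin-like genes, 8 were tested, 2 rose and 3 fell past the threshold (median −0.15). For this list and the Ly6 and follistatin lists below, the shares of all genes tested were 23.3% higher and 19.5% lower. NECTIN1 fell from 84.4 ± 1.45 to 35.9 ± 3.86 CPM and CADM2 from 9.76 ± 0.592 to 1.21 ± 0.456 CPM (SD, n = 3 each). PVR did not pass (log2 fold change −0.15, adjusted p = 0.0591 by edgeR). NECTIN2 (−0.77) fell and NECTIN3 (1.72) rose, both chosen after their values were seen. Of the Ly6 family to which PSCA belongs, genes off chromosome 8 were listed, and of 9 tested 3 rose and 3 fell (median −0.15). CD177 and LY6G6C, which rose, passed the count filter through the LNCaP-enzaR libraries only, and LY6G5B, which fell, through the parental libraries only. With at least 10 counts in every library, 1 rose and 2 fell. CD59 is a member of this list too, LYPD6 fell (−2.28) and LYPD3 did not pass (−0.15). Of follistatin-domain genes and partners of TMEFF2, 12 were tested, 6 rose and 2 fell (median 1.00). SMOC1 and FST, which rose, passed the count filter through the LNCaP-enzaR libraries only, and SPARC, which fell, through the parental libraries only. These genes enter the median. With at least 10 counts in every library, 4 rose and 1 fell. FSTL3 rose from 9.10 ± 0.618 to 39.5 ± 2.88 CPM and FSTL1 fell from 24.7 ± 0.995 to 6.22 ± 0.389 CPM. ADAM10, a membrane protease (0.38), and AGRN (0.16) did not pass.

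A list of 46 other surface proteins that are targets in solid tumours had 36 tested genes, of which 14 rose and 12 fell past the threshold (median 0.41). ADAM9 and SLC39A6, its most abundant members by CPM, fell from 347 ± 8.67 to 224 ± 16.1 CPM and from 304 ± 7.67 to 198 ± 19.6 CPM (SD, n = 3 each). Both came under the fold limit without LNCaP-enzaR replicate 1 (−0.57 and −0.54) and with upper-quartile scaling (−0.53 and −0.52). ALCAM, an adhesion molecule, fell from 72.7 ± 3.93 to 4.17 ± 0.358 CPM, and GPNMB, a glycoprotein, rose from 3.84 ± 0.341 to 23.0 ± 0.622 CPM. Over the 8 lists, 108 genes were tested and 71 of them (65.7%) were past the threshold, with 33 higher and 38 lower, beside 42.7% of all genes tested. Without LNCaP-enzaR replicate 1 the count was 66, and in the list of other surface targets it was 22 instead of 26. It fell to 52 when at least 10 counts were required in every library, which leaves out genes with few counts in either line. The list of other surface targets then had 15 past the threshold, the Ly6 list 3 instead of 6 and the follistatin list 5 instead of 8.

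**Figure D4:**
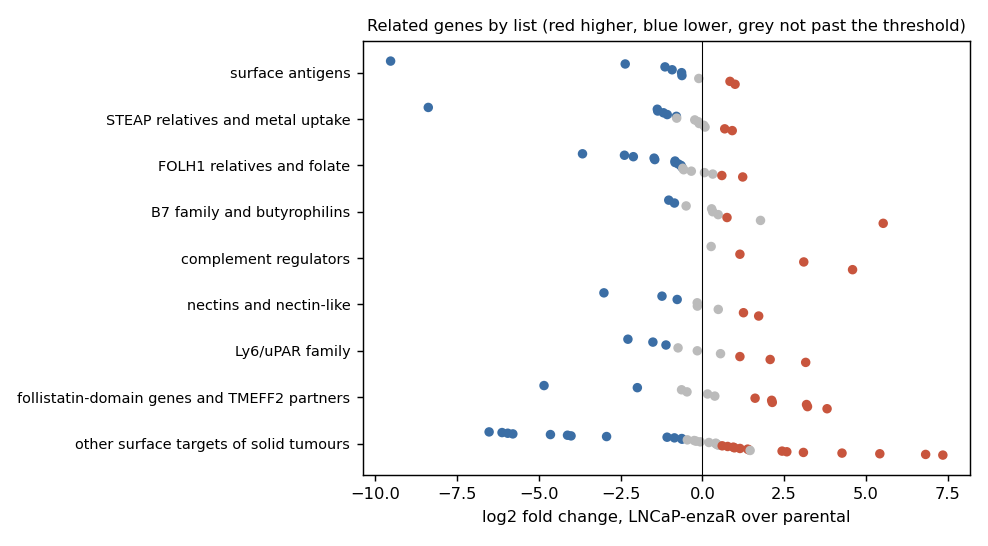
Log2 fold change of LNCaP-enzaR over parental (x axis) for each tested gene of the antigens and of 8 lists of related genes, with red for higher, blue for lower and grey for not past the threshold. Both directions appear in each list except the complement regulators, where 3 of 4 genes rose and none fell.

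Around the antigens, genes whose lower coordinate lay within 500000 bases of the antigen's went both ways. Near STEAP1, 9 neighbours were tested, of which 4 (the antigen STEAP2 among them) rose and 2 fell past the threshold, with log2 fold changes of −4.06 to 1.97. Of all genes tested, 23.3% rose and 19.5% fell past it. CFAP69, separated from STEAP2 by 7037 bases, rose from 7.87 ± 0.770 to 28.5 ± 2.95 CPM (log2 fold change 1.85), and SRI, 43899 bases from STEAP4, did not pass (0.32). The nearest tested protein-coding genes on either side of TMEFF2 were NABP1, which fell (−0.95), and SLC39A10, 3381044 bases away, which did not pass (−0.21). For FOLH1 they were TRIM49B, 106641 bases away, and TRIM48, 6053517 bases away, both under 0.5 CPM in each line and with log2 fold changes of 2.26 and 2.15. Both have close copies in the genome, so that their counts are uncertain. Of 12 tested neighbours of PSCA 9 rose and none fell, beside 23.3% higher and 19.5% lower of all genes tested. Around NECTIN4 5 of 29 rose and 4 fell, around CD276 5 of 10 rose and 1 fell, and around CD46 1 of 5 rose. The gene that rose near CD46 was CR2, with 0, 2 and 3 counts in the parental libraries. Within 5000000 bases the median log2 fold change was −0.62 over 37 genes near TMEFF2, −0.40 over 49 near FOLH1 and 0.34 over 118 near PSCA. It was 0.31 over 94 near CD46, 0.22 over 111 near CD276 and 0.03 over 115 near NECTIN4. Near STEAP1, STEAP2 and STEAP4 it was −0.19 each. The median of all genes tested was 0.01.

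The genes whose pattern lay nearest to that of each antigen were found among 10537 genes with a symbol and a mean of at least 5 CPM, by the Euclidean distance of centred log2 CPM over the 6 libraries. As the lines differ so widely, this distance reflects mostly the size of the change between them. The nearest were NUS1 and ZNF542P to FOLH1 (distances 0.0273 and 0.0304), ORC4 and ZNF813 to STEAP1 (0.0428 and 0.0525), SGCB and IL6ST to STEAP2 (0.0345 and 0.0724), and CANT1 and MAP4K4 to CD276 (0.0544 and 0.0651). ZFP36 and ERMAP were nearest to NECTIN4 (0.0597 and 0.0624), FEM1C and BPNT2 to CD46 (0.0343 and 0.0441), and ZNF844 and OVGP1 to PSCA (0.157 and 0.163). The nearest genes lay further from STEAP4 and TMEFF2. HES4 and OAS3 were at 0.570 and 0.590 from STEAP4, and ADAM7 and ASS1P13 at 1.48 and 1.98 from TMEFF2. STEAP4, at 0.422 and 0.082 CPM in the 2 lines, lay far under the limit of 5 CPM. No gene of its level was compared, so its distances cannot show whether it has a close match. TMEFF2 held 1, 5 and 12 counts in the LNCaP-enzaR libraries, and the spread of these few counts enters its distances. They cannot show whether TMEFF2 has a close match either. In size of change ADAM7 lay near it, at −9.92 beside −9.53 on the log2 scale.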

How the data were processed

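Libraries were made with an mRNA kit and sequenced as paired ends. Per the labels and methods, the authors trimmed reads with Cutadapt, aligned them with STAR to GRCh38.p13 using GENCODE v38, and summarised genes with featureCounts. The deposited values are raw counts. Strand setting and the handling of multi-mapping reads are not given in the sources used here. Groups and replicate numbers came from the titles, and 4 empty columns were ignored.

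The main test was the robust quasi-likelihood test of edgeR 4.0.16 (R 4.3.3) after filterByExpr and TMM, with line as the only term and Benjamini-Hochberg adjustment across 19711 genes. The limits, 1.5-fold and 0.05, follow the study. SE is the log2 fold change divided by the square root of F. Exonic lengths and overlaps came from GENCODE v44, which held 99.8% of genes by identifier, 91.4% with the same coordinates. TPM was computed without TMM. The test was checked on simulated counts.

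The antigens and lists were chosen with earlier results of these data known. Genes were named by rule: the antigens, the 2 most abundant and the 2 smallest p past the threshold in each list, the 2 nearest in pattern to each antigen, and the nearest tested protein-coding neighbours of FOLH1, TMEFF2 and the STEAP genes. Clone names did not count as symbols. One gene that the rule names is not reported here. Promoter windows were matched by symbol for 7 of the 9 antigens. Alternatives were DESeq2 1.42.0, different scaling and filtering, subsets of genes, a replicate block, different limits, transcript length and leaving out each library.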

Additional observations from a re-analysis of the deposited data

How the results depend on the processing

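Under every alternative that tested them at the same limits, 7 of the 9 antigens stayed on one side of the threshold with one direction. The exceptions, FOLH1 and STEAP1, lie near 1.5-fold. With upper-quartile scaling they were at −0.53 and −0.52, short of the fold limit. When single libraries were omitted they ranged from −0.67 to −0.57 and from −0.68 to −0.54, short of it without LNCaP-enzaR replicate 1. Upper-quartile scaling shifted the median of all genes by 0.10 (log2), and 60.9% rather than 54.5% of calls were then higher. The number of antigens past the threshold was 6 to 8 over the alternatives at the same limits, and 4 at a minimum of 2-fold. With at least 10 counts in every library, STEAP4 and TMEFF2 were not tested. Over all genes, 13074 were past the threshold with no minimum fold and 5561 at a minimum of 2-fold, against 8425. FTH1, which did not pass, changed sign with upper-quartile scaling (0.0037). Of 26 named list genes, 22 kept direction and call in every alternative, the exceptions being FTH1, whose call did not change, and ADAM9, SLC39A6 and SHMT2. DESeq2 called 8 antigens, in the same directions.

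Replicate numbers were not taken as pairs: residuals of equal-numbered libraries had correlations of −0.065 to −0.00041. A replicate block left 8 antigens and 70 list genes past the threshold, and no antigen changed its call. Depth limits STEAP4 and, in LNCaP-enzaR, TMEFF2, where 3 counts are 0.0302 to 0.0382 CPM.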
